A study of Homo sapiens with 4 samples.

Results

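BNIP3 and 8 further genes of mitophagy, the removal of mitochondria by autophagy, were followed in a human acute myeloid leukaemia line made resistant to a kinase inhibitor and in its parent. The 9 genes, BNIP3, BNIP3L, FUNDC1, PINK1, SQSTM1, OPTN, MAP1LC3B, GABARAPL1 and BECN1, were chosen by name with their MV4-11R to MV4-11 differences in log2 signal already known, and were found by symbol in the platform annotation. All 9 were measured, out of 18417 genes in all. RNA of MV4-11R, obtained by growing MV4-11 for 3 months in rising concentrations of PKC412 (midostaurin, which inhibits FLT3 and other kinases), was hybridised to 2 arrays, and RNA of the drug-sensitive parent MV4-11 to 2 more. Both lines derive from leukaemic cells with an MLL fusion and an internal tandem duplication in FLT3, and the labels give EZH2 expression as low in MV4-11R and high in MV4-11. MV4-11R is 1 resistant line, and the labels say neither whether it is a clone nor whether the drug was present when RNA was taken. The arrays are called R1 and R2 for replicates 1 and 2 of MV4-11R, and P1 and P2 for those of the parent MV4-11.

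Mitophagy receptors sit on the outer mitochondrial membrane or are recruited to it, and they bind the small lipid-linked proteins of the LC3 and GABARAP family on the growing autophagosome. BNIP3, BNIP3L (also called NIX) and FUNDC1 are membrane receptors known from hypoxia, and BNIP3L is also known from the maturation of red cells. In the other route the kinase PINK1 accumulates on damaged mitochondria and marks them with phosphorylated ubiquitin, which adaptors such as OPTN and SQSTM1 (p62) recognise.

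The 4 arrays had median log2 signals of 6.75 to 6.78, and over all genes arrays of one line correlated at 0.993 and 0.994, against 0.968 to 0.974 between lines (across genes, which are not independent replicates). All 8 measured myelomonocytic markers, among them SPI1, LYZ, MPO and FLT3, read above 6.26 on all 4 arrays. That value is the 95th percentile of 341 olfactory receptor genes, taken to be silent in these cells, and serves as a background guide. Of the markers of other cells, 2 of 3 B cell, 2 of 5 T and NK cell, 1 of 4 erythroid and platelet and 4 of 6 epithelial and fibroblast genes also read above the guide on all arrays. Their mean levels over each list ranged from 6.07 to 6.67 on the MV4-11R arrays and from 6.19 to 6.29 on the MV4-11 arrays. These means hide single genes, as NKG7 read 11.29 and 11.37 in MV4-11R and 10.33 and 10.44 in MV4-11. Of these markers PAX5 (B cell, 0.80) and NKG7 (T and NK cell, 0.94) were called higher in MV4-11R, and ITGA2B (platelet, -0.67) and KRT18 (epithelial, -0.58) were called lower. Of the 8 myelomonocytic markers 0 rose and 3 fell, FLT3 (-0.93), PTPRC (-0.81) and LYZ (-0.69), and their mean level was 10.18 to 10.25 in MV4-11R and 10.42 to 10.55 in MV4-11. The part of these markers in the results below was not tested. EZH2 averaged 9.60 ± 0.43 in MV4-11R and 9.74 ± 0.0051 in MV4-11 (SD, n = 2 each), a log2 difference of -0.14 (SE 0.20, limma adjusted p = 0.734). Its MV4-11R arrays read 9.90 and 9.29, and the difference was -0.45 without R1 and 0.16 without R2, so its direction rests on 1 array. These are RNA values, and EZH2 protein was not measured here.

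BNIP3 RNA was much higher in the resistant line. BNIP3 (Entrez gene 664, chromosome 10) read 8.83 and 9.65 on the MV4-11R arrays, against 5.81 and 5.54 on the MV4-11 arrays. Both MV4-11R arrays were above both MV4-11 arrays, with 3.02 log2 units between the nearest pair, and the MV4-11 values lay under the background guide. The means were 9.24 ± 0.58 in MV4-11R and 5.68 ± 0.19 in MV4-11 (SD, n = 2 each), a log2 difference of 3.56 (SE 0.27, 95% interval 2.91 to 4.22) or 11.8-fold, a fold that is not exact because the parent's signal is near background. As measured it was the 9th largest rise of the 18417 genes, a rank that is no more exact than the fold. The genes were chosen with this contrast known, so for all 9 the values, intervals and calls are a description and no test is given. A gene is said to be called, to have risen or to have fallen where limma, fitted over all genes, gave an adjusted p under 0.05, and 15.1% of all genes were called. In bulk RNA, fewer cells that express a gene and less RNA per cell cannot be told apart.

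**Figure D1:**
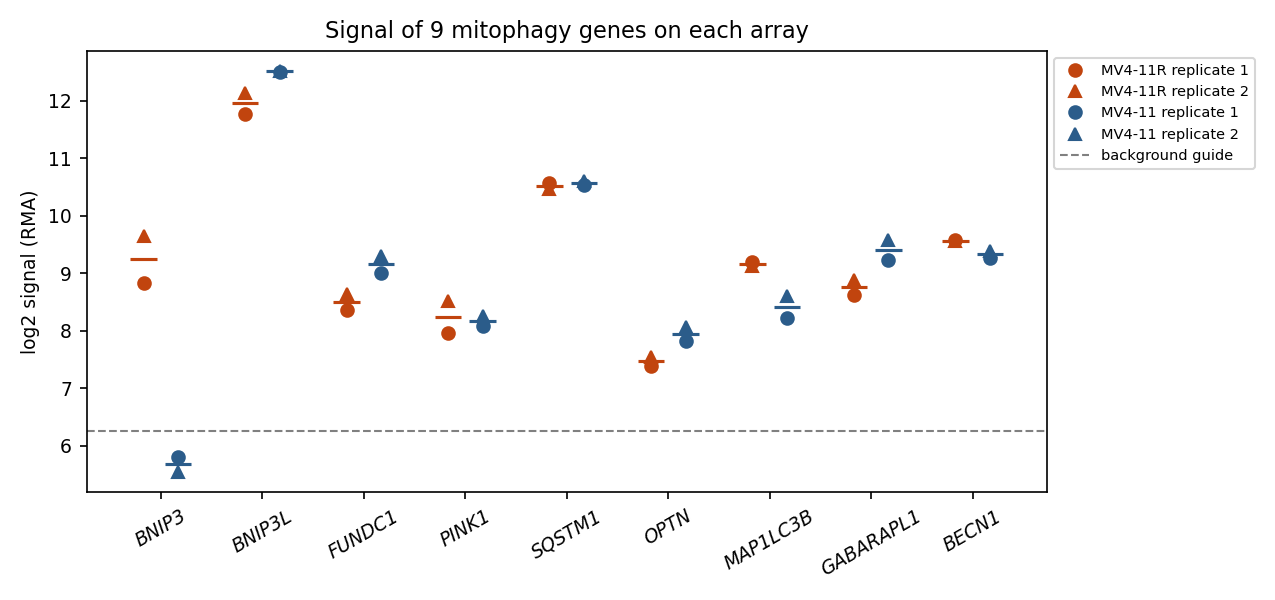
Log2 signal of the 9 genes on each array, with MV4-11R in orange to the left of MV4-11 in blue, circles for replicate 1, triangles for replicate 2, short bars for the mean of 2 arrays and a dashed line at the background guide of 6.26. BNIP3 is the gene whose MV4-11 arrays (5.81 and 5.54) lie under the guide while its MV4-11R arrays (8.83 and 9.65) lie above it.

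The MV4-11R arrays themselves differed for BNIP3, replicate 2 reading 0.82 above replicate 1. Without R1 the difference was 3.98 and without R2 it was 3.15, and BNIP3 was called in both cases. Over the 9 genes, 6 read higher on replicate 2 of MV4-11R and 8 read higher on replicate 2 of MV4-11. The median gap of replicate 2 over replicate 1 was 0.26 in MV4-11R and 0.18 in MV4-11 for the 9 genes, against -0.03 and 0.02 for all genes.

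The genes whose profile over the 4 arrays was nearest to that of BNIP3, by Euclidean distance after each gene's own mean was taken off, were the zinc finger gene ZNF506 (distance 0.56, difference 3.77), the cytochrome P450 gene CYP1B1 (0.58, difference 3.68), FAM221A (0.61, difference 3.06), the BCL2 family gene BCL2L10 (0.63, difference 4.15) and the lipoxygenase gene ALOX12 (0.73, difference 3.82). Symbols that start with LOC, LINC, MIR or SNOR, or hold ORF or -AS, were left out of this search. The likeness rests on 4 arrays of 2 lines. Both MV4-11 arrays of CYP1B1, FAM221A, BCL2L10 and ALOX12, and 1 of those of ZNF506, lay under the background guide, so these differences are not exact either.

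The promoter of BNIP3 is rich in CpG and in the short core that hypoxia-inducible factors (HIF) bind. The windows below run from 250 bases before to 50 bases after the annotated start (RefSeq, GRCh38.p14). They are shown for the 4 called genes, BNIP3 and MAP1LC3B, which rose, and GABARAPL1 and FUNDC1, which fell, with the HIF core ACGTG or GCGTG on either strand in capitals.
BNIP3, chr10:131981874-131982173, minus strand: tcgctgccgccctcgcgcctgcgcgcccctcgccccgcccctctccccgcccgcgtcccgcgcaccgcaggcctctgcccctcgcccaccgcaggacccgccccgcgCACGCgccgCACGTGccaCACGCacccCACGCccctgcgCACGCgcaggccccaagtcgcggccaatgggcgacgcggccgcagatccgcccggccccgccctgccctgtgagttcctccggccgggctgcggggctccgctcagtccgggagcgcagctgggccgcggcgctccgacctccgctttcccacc
MAP1LC3B, chr16:87392086-87392385, plus strand: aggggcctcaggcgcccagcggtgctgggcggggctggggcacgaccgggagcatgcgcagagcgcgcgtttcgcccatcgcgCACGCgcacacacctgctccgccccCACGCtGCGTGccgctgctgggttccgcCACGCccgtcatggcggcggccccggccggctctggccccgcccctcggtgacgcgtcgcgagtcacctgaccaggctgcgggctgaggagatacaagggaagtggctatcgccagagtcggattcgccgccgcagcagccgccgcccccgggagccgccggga
GABARAPL1, chr12:10212627-10212926, plus strand: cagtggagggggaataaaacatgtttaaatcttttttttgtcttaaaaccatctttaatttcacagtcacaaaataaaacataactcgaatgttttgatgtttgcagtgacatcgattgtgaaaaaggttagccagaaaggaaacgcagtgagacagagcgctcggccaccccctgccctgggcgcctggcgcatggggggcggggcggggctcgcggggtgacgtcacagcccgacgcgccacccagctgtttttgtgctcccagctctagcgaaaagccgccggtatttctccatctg
FUNDC1, chrX:44542810-44543109, minus strand: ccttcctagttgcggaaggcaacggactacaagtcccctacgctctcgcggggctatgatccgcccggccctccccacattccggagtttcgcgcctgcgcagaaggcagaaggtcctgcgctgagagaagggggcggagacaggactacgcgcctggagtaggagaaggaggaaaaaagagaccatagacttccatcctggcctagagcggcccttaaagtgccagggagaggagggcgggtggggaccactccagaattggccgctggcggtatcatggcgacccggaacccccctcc

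The BNIP3 window held 6 HIF cores, 2 of ACGTG and 4 of GCGTG, where the ACGTG pair is both strands of 1 palindromic CACGTG. The MAP1LC3B window held 4, all GCGTG, and the windows of GABARAPL1 and FUNDC1 held 0. Of 35116 such windows 48.4% held at least 1 core, 0.923% held 6 or more and 4.40% held 4 or more. CACGTG, an E-box that is also the core of the TFEB motif, was in 7.26% of windows. The FOXO motif GTAAACA, searched on both strands, was in 3.42% of windows and in 0 of these 4. The BNIP3 window held 48 CpG and that of MAP1LC3B 42, against 18 for GABARAPL1, 21 for FUNDC1 and a median of 14 over all windows. Windows were also present for SQSTM1, OPTN and BECN1, which were not called, and held 0 HIF cores. Their CpG counts were 38, 32 and 38 for SQSTM1, 25 and 29 for OPTN and 12 for BECN1. BNIP3L, which had a lower mean in MV4-11R, is missing from these counts because windows on its chromosome were left out. PINK1 had no window either. The HIF cores of BNIP3L and PINK1 are therefore not known here, and whether cores go with the direction of the difference was not tested. GCGTG contains a CpG, as does ACGTG, so the motif counts and CpG counts are not independent. A match is a description of the letters and not a binding site.

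The 5 measured genes on either side of BNIP3 on chromosome 10 had a median difference of 0.01, from -1.06 to 0.53, and 2 of these 10 were called. Its immediate measured neighbour PPP2R2D, a regulatory subunit of protein phosphatase 2A, read 9.64 and 9.81 in MV4-11R, against 10.86 and 10.71 in MV4-11, and fell by 1.06 (SE 0.12, limma adjusted p = 0.00503). GLRX3, a glutaredoxin, rose by 0.53 (SE 0.12, adjusted p = 0.0329). JAKMIP3, the next measured gene on the other side, differed by -0.12. Just outside these 10, the transcription factor gene EBF3 read 8.27 and 8.74 in MV4-11R, against 7.53 and 7.20 in MV4-11, and rose by 1.14 (SE 0.20, adjusted p = 0.0158). These 4 genes were named after their values were seen.

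BNIP3 also has many pseudogenes, and most of these lie among zinc finger genes. RefSeq names 46 BNIP3 pseudogenes on 10 chromosomes, of which 33 are on chromosome 19. The 34 measured genes between the first and the last of those 33 copies, 31 of them named ZNF, had a median difference of 0.28, and 10 rose and 0 fell, against 7.92% of all genes that rose and 7.13% that fell. At an unadjusted p under 0.05, limma found 14 higher and 1 lower, against 28.6% of all genes in either direction. Among the 10, ZNF626 read 11.67 and 11.70 in MV4-11R, against 10.22 and 10.23 in MV4-11, and rose by 1.46. ZNF737 and RPSA2 lay under the background guide on all 4 arrays and ZNF43 on 3 of 4, so the sizes of their differences are not given. ZNF506, the nearest profile to BNIP3 among the symbols searched, is the last measured gene before the first copy. The stretch and its genes were picked with their values in view. The annotation gives 0 probe sets to the pseudogenes. Probe sequences were not used here, and whether the BNIP3 probe set also reads RNA of these copies was not tested.

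**Figure D2:**
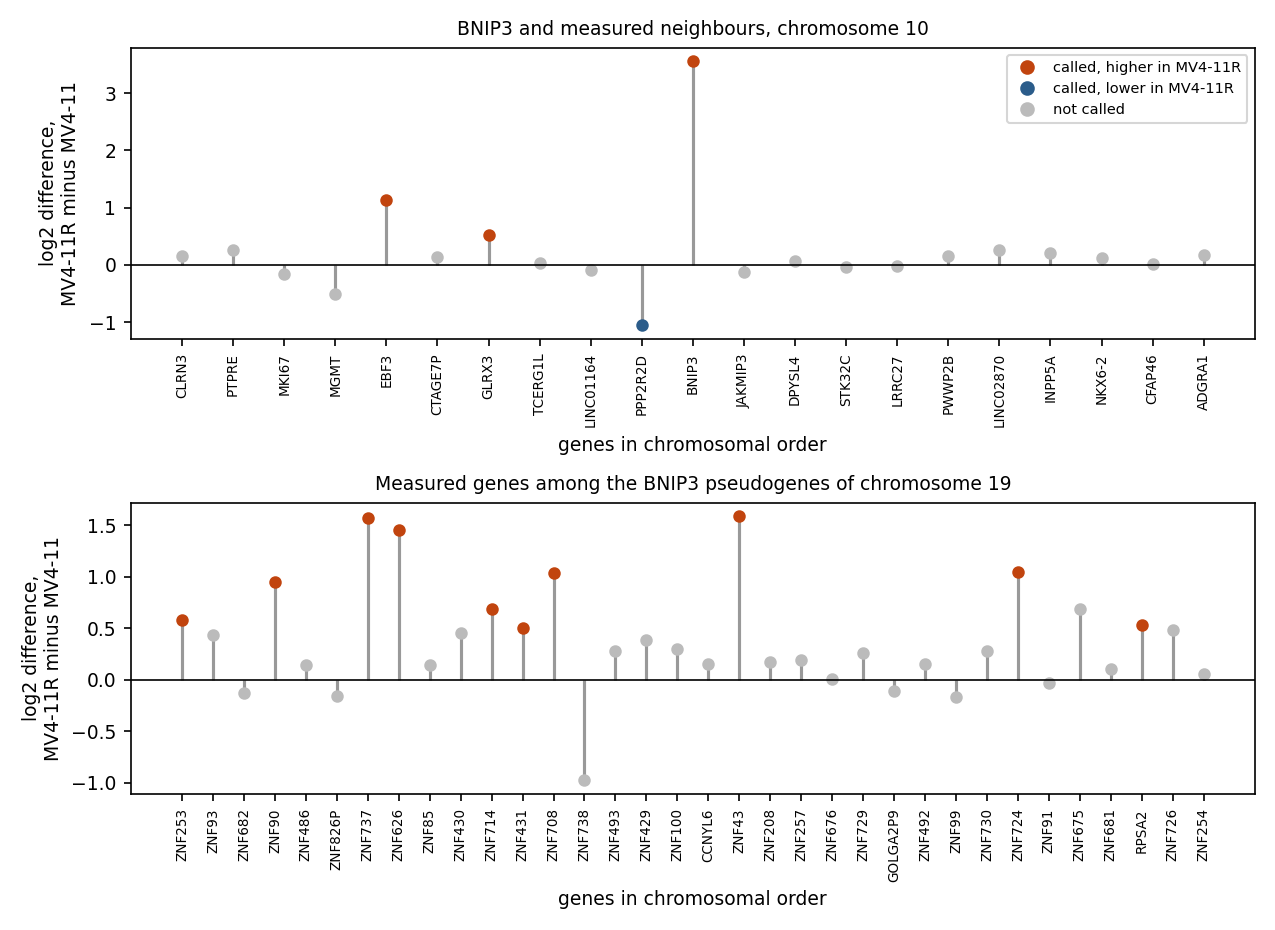
Log2 difference, MV4-11R minus MV4-11, of measured genes in chromosomal order, around BNIP3 on chromosome 10 (top) and between the first and last BNIP3 pseudogene of chromosome 19 (bottom), with called rises in orange, called falls in blue and other genes in grey. BNIP3 at 3.56 stands beside PPP2R2D at -1.06, and 10 of the 34 chromosome 19 genes were called, all higher in MV4-11R.

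Of the other membrane receptors FUNDC1 fell in the resistant line, and BNIP3L had a lower mean there but was not called. BNIP3L (Entrez gene 665, chromosome 8), the closest relative of BNIP3 and a receptor needed for the clearance of mitochondria from maturing red cells, read 11.78 and 12.13 in MV4-11R, against 12.50 and 12.52 in MV4-11. The lines did not overlap, and the MV4-11 arrays lay 0.02 apart. The difference was -0.56 (SE 0.14, 95% interval -0.91 to -0.20), and the gene was not called. FUNDC1 (Entrez gene 139341, chromosome X), a receptor regulated by phosphorylation, read 8.37 and 8.65 in MV4-11R, against 9.004 and 9.31 in MV4-11. It fell by 0.65 (SE 0.16, 95% interval -1.04 to -0.26), or 1.57-fold, and again the lines did not overlap. FUNDC1 was not called without P2 (-0.50), without R1 (-0.51) or with the median of its chromosomal neighbours, -0.17, taken off (-0.48). BNIP3L was called without R2 (-0.73), and at -0.56 also with the level filter, repeated quantile normalization, eBayes with trend and the replicate block, in 5 of 13 settings in all.

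None of PINK1, SQSTM1 and OPTN, the genes of the ubiquitin route, was called. PINK1 (Entrez gene 65018, chromosome 1) read 7.97 and 8.52 in MV4-11R, against 8.08 and 8.25 in MV4-11, so the lines overlapped. Its difference was 0.08 (SE 0.20, 95% interval -0.40 to 0.56), and it was 0.36 without R1 and -0.19 without R2. SQSTM1 (Entrez gene 8878, chromosome 5), an adaptor that is itself degraded by autophagy, read 10.58 and 10.46 in MV4-11R, against 10.54 and 10.60 in MV4-11. Those lines overlapped too, with a difference of -0.05 (SE 0.11, 95% interval -0.32 to 0.22). OPTN (Entrez gene 10133, chromosome 10), a ubiquitin-binding adaptor that the kinase TBK1 phosphorylates, read 7.39 and 7.55 in MV4-11R, against 7.82 and 8.06 in MV4-11. Both MV4-11R arrays were below both MV4-11 arrays, and the difference of -0.47 (SE 0.13, 95% interval -0.79 to -0.14) was not called.

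RNAs for autophagosome proteins that receptors bind differed in opposite directions. MAP1LC3B (Entrez gene 81631, chromosome 16), the LC3 protein most used as a marker of autophagosomes, read 9.19 and 9.13 in MV4-11R, against 8.23 and 8.61 in MV4-11. It rose by 0.74 (SE 0.15, 95% interval 0.37 to 1.11), or 1.67-fold, with no overlap between lines. A second probe set, which the annotation gives to both MAP1LC3B2 and MAP1LC3B, read 11.47 and 11.37 in MV4-11R, against 10.68 and 10.68 in MV4-11, and its difference was also 0.74 (SE 0.11). MAP1LC3B was not called without R1 (0.71), R2 (0.77) or P1 (0.55). GABARAPL1 (Entrez gene 23710, chromosome 12), a relative in the GABARAP branch, read 8.63 and 8.89 in MV4-11R, against 9.23 and 9.57 in MV4-11. It fell by 0.65 (SE 0.16, 95% interval -1.04 to -0.25), or 1.57-fold, without overlap, and was not called without P2 (-0.48) or R1 (-0.52).

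Of the rest of that family, GABARAPL2 read 10.63 and 10.87 in MV4-11R, against 11.56 and 11.82 in MV4-11, and fell by 0.94 (SE 0.15, limma adjusted p = 0.0118), or 1.92-fold. GABARAP differed by -0.25 (adjusted p = 0.241), MAP1LC3A by 0.07 (0.780) and MAP1LC3C by -0.04 (0.884). The 3 GABARAP branch genes thus had differences of -0.25, -0.65 and -0.94 and the 3 LC3 genes of -0.04, 0.07 and 0.74. GABARAP, MAP1LC3A and MAP1LC3C were named to complete the family, after their values were seen, and the difference between the branches was not tested.

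BECN1 (Entrez gene 8678, chromosome 17) encodes Beclin 1, a part of the lipid kinase complex that starts the autophagosome. It read 9.58 and 9.57 in MV4-11R, against 9.27 and 9.39 in MV4-11. The lines did not overlap, but the difference of 0.24 (SE 0.11, 95% interval -0.02 to 0.51) was not called.

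**Figure D3:**
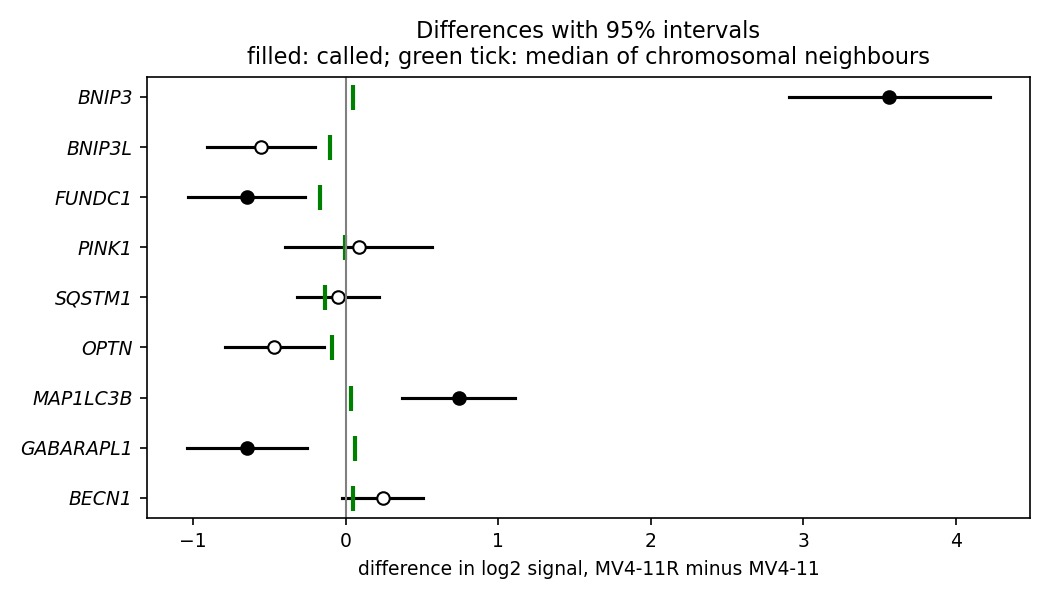
Difference in log2 signal, MV4-11R minus MV4-11, of the 9 genes with 95% intervals from limma (n = 2 arrays per line), filled where the gene was called, and a green tick at the median difference of up to 20 chromosomal neighbours. The interval of BNIP3 runs from 2.91 to 4.22, and the neighbours' medians lie between -0.17 and 0.06.

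Of the 9 genes 2 rose, BNIP3 and MAP1LC3B, 2 fell, FUNDC1 and GABARAPL1, and 5 were not called. That is 44.4% called against 15.1% of all genes, with a median difference of -0.05 against 0.01. The arrays of the lines did not overlap for 7 of the 9, against 55.6% of all genes. The contrast was known when the genes were chosen, and nothing is read from these shares. With 1 array left out, the number called was 3 without P1, 2 without P2, 1 without R1 and 4 without R2, BNIP3 being called each time. With the replicate number as a block it was 6, BNIP3L and OPTN being added. It was 5, BNIP3L being added, with the level filter, repeated quantile normalization or eBayes with trend, and 3 with the neighbours' median taken off. With every probe set tested on its own, BNIP3 alone of the 9 was called.

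Other genes of mitophagy were called about as often as all genes. Of 36 listed, 33 were measured, 2 rose, 3 fell and 28 were not called, which is 15.2% called against 15.1% of all genes. By 2 looser measures they differed more often. In limma 16 of the 33 had an unadjusted p under 0.05, against 28.6% of all genes. The arrays of the lines did not overlap for 27, against 55.6%. With the neighbours' median taken off 0 rose and 6 fell, while over all 18417 genes 1372 rose and 1558 fell. PARL, the protease of the inner mitochondrial membrane that cuts PINK1, read 9.49 and 9.58 in MV4-11R, against 10.45 and 10.43 in MV4-11, and fell by 0.91 (SE 0.11, limma adjusted p = 0.00514). Its neighbours on chromosome 3 had a median of -0.32, and with that taken off the PARL difference was -0.59 (adjusted p = 0.0187). NIPSNAP1 fell by 0.66 (adjusted p = 0.0268) and NIPSNAP2, named after its value was seen, by 0.46 (0.0396). Both encode mitochondrial matrix proteins that attract autophagy adaptors when mitochondria are damaged. PGAM5, a mitochondrial phosphatase that acts on FUNDC1, rose by 0.51 (adjusted p = 0.0310), and VDAC1, the outer membrane channel that the ubiquitin ligase Parkin marks, rose by 0.45 (0.0423). The Parkin gene itself was not analysed here. Among listed genes, PARL alone was called in each of the 4 fits that left out an array. Without P1, P2 or R1 the list had 1 call each, and without R2 it had 2, with 0 rises each time. The calls on PGAM5 (adjusted p 0.0576 to 0.130), VDAC1 (0.107 to 0.187) and NIPSNAP2 (0.0687 to 0.144) were lost without any 1 array, and those on PGAM5 (difference 0.32, adjusted p = 0.104) and VDAC1 (0.0766) also with the neighbours' median taken off. That on NIPSNAP1 was lost without P1 (0.0507), P2 (0.103) or R1 (0.0928).

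In the core autophagy machinery the starting kinase was higher. ULK1, which begins autophagy and phosphorylates FUNDC1 and BECN1, read 10.02 and 9.997 in MV4-11R, against 9.21 and 9.31 in MV4-11, and rose by 0.75 (SE 0.11, limma adjusted p = 0.00983), or 1.68-fold. PIK3C3, the lipid kinase that works with Beclin 1, rose by 0.63 (adjusted p = 0.0205), while UVRAG, a partner of the same complex, fell by 0.67 (0.0287). PIK3C3 lies on chromosome 18, where its neighbours had a median of 0.71, and with that taken off its difference was -0.084 (adjusted p = 0.669). Of 43 measured genes 2 rose, 4 fell and 37 were not called, or 14.0% against 15.1% of all genes, with a median of -0.08 against 0.01. The other falls were of GABARAPL2, of ATG10, which acts in conjugation (-0.65), and of WIPI1, which binds the lipid that PIK3C3 makes (-0.64), the last pair named after their values were seen. Without 1 array the number called was 3 without P1, P2 or R1, and 7 without R2. ULK1 and GABARAPL2 were called in all 4 of these fits. The calls on PIK3C3 (adjusted p 0.0680 to 0.0777) and UVRAG (0.0735 to 0.0982) were lost without P1, P2 or R1. That on ATG10 was lost without P1 (0.0599) or P2 (0.0617), and that on WIPI1 without P2 (0.173) or R1 (0.163) and after median centring (0.0520).

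Lysosomal genes, whose products digest what autophagosomes deliver, had lower means in MV4-11R in 23 of 29 cases. Of 32 listed, these 29 were measured, 2 rose, 8 fell and 19 were not called, so 34.5% were called against 15.1% of all genes, and the median difference was -0.40 against 0.01. The falls of the myelomonocytic markers FLT3, PTPRC and LYZ ran the same way, and their part in the lysosomal falls was not tested. TFEB, the transcription factor that drives lysosomal and autophagy genes, read 7.998 and 8.12 in MV4-11R, against 8.81 and 8.93 in MV4-11, and fell by 0.81 (SE 0.12, limma adjusted p = 0.0095). Its relative TFE3 fell by 0.76 (adjusted p = 0.0125). The lysosomal membrane protein gene LAMP1 read 9.22 and 9.40 in MV4-11R, against 10.65 and 10.77 in MV4-11, and fell by 1.40 (SE 0.12, adjusted p = 0.00221). LAMP1 lies on chromosome 13, where its neighbours had a median of -0.93, and with that taken off the difference was -0.47 (adjusted p = 0.0499). The protease gene CTSL fell by 1.52 (SE 0.14, adjusted p = 0.00281), read 5.07 and 4.96 in MV4-11R, under the background guide, and differed by -1.0 with its neighbours' median taken off. Because its MV4-11R signal is near background, neither size is exact.

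The acid glucosidase gene GAA fell by 1.26 (adjusted p = 0.0143), the proton pump subunit gene ATP6V1A by 1.04 (0.00962), the sialidase gene NEU1 by 1.01 (0.00503) and the saposin precursor gene PSAP by 0.69 (0.0404). Of these, ATP6V1A (-0.67) and NEU1 (-0.66) were smaller with the neighbours' median taken off. In that setting 1 gene of the whole lysosomal list rose and 13 fell, while over all 18417 genes 1372 rose and 1558 fell. The galactosidase gene GLA rose by 0.68 (adjusted p = 0.0451), as did CTSA, which encodes a protective protein for lysosomal enzymes, by 0.52 (0.0295). TFE3, GAA, ATP6V1A, NEU1 and PSAP were named after their values were seen. TFEB, LAMP1, CTSL, GAA, NEU1 and ATP6V1A were called in all 4 fits that left out an array. The call on TFE3 was lost without P2 (adjusted p = 0.0523) and that on PSAP without P1 (0.0982), P2 (0.114) or R1 (0.104). The call on GLA was lost without P1 (0.163) or R2 (0.129). That on CTSA was lost without any 1 array (0.0717 to 0.140) and with the neighbours' median taken off (0.0646).

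**Figure D4:**
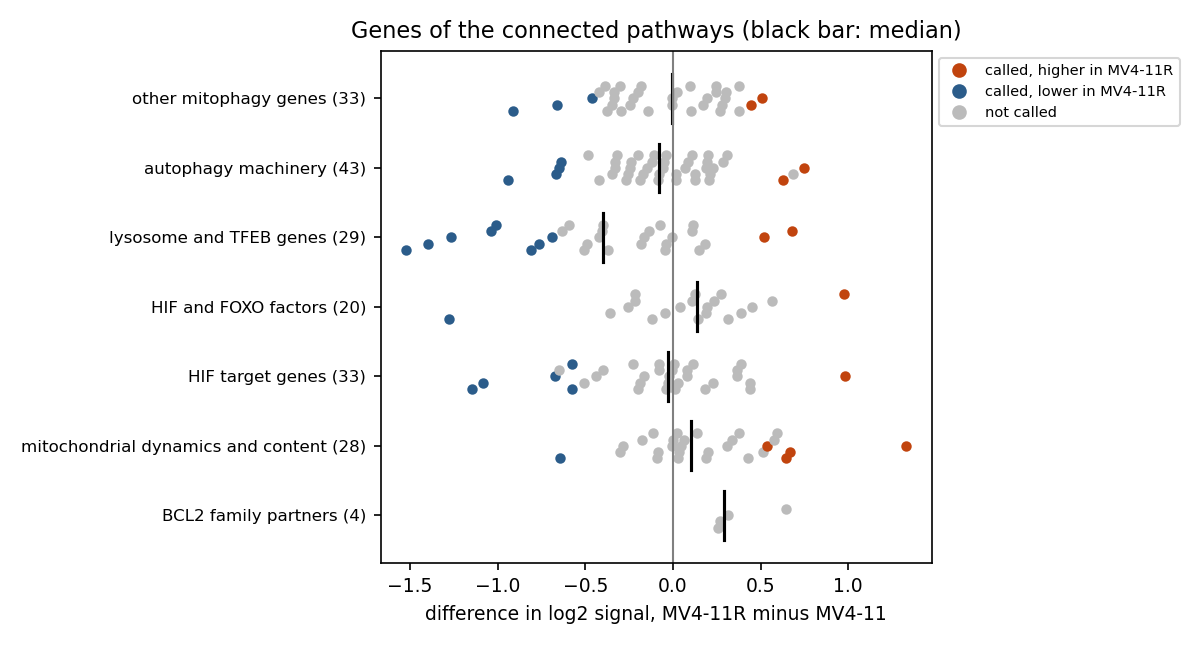
Difference in log2 signal, MV4-11R minus MV4-11, of each measured gene in 7 lists (number of genes in brackets), orange where called higher, blue where called lower, grey otherwise, with a black bar at the list's median. The lysosome list has 8 called falls and 2 called rises and a median of -0.40, and the list of other mitophagy genes has a median of -0.01.

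BNIP3 is a well known HIF target. Most of the factors listed as regulators of BNIP3, or of the HIF and FOXO factors, were not called. Their RNA was measured and not their protein, and their part in the BNIP3 difference was not tested. HIF1A read 10.56 and 10.69 in MV4-11R, against 10.84 and 10.92 in MV4-11, with a difference of -0.26 (SE 0.11, limma adjusted p = 0.206). FOXO3, which induces BNIP3 in muscle, differed by 0.20 (adjusted p = 0.485), by 0.0077 without P1 and by 0.38 without P2. EPAS1, which encodes HIF-2 alpha, read 6.34 and 6.90 in MV4-11R, against 7.60 and 8.20 in MV4-11, and fell by 1.28 (SE 0.26, adjusted p = 0.0259). The zinc finger gene PLAGL2 rose by 0.98 (adjusted p = 0.0494). Of 20 measured factors 1 rose, 1 fell and 18 were not called, against 15.1% of all genes called. The EPAS1 call was lost without P2 (0.0602) or R1 (0.0692). The PLAGL2 call was lost without P1 (0.104), P2 (0.113) or R1 (0.0593, difference 0.59), and with the neighbours' median taken off (0.115).

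Other HIF target genes were called in both directions. Of 33 measured, 1 rose, 5 fell and 27 were not called, or 18.2% against 15.1%, and the median difference was -0.03 against 0.01. DDIT4, an inhibitor of mTOR signalling, read 9.43 and 9.51 in MV4-11R, against 8.45 and 8.52 in MV4-11, and rose by 0.98 (SE 0.11, limma adjusted p = 0.00439). The glycolytic genes ALDOC (-1.15, adjusted p = 0.0347) and PFKFB3 (-1.08, 0.0080) fell. So did the hexokinase gene HK2 (-0.68, 0.0411), the histone demethylase gene KDM3A (-0.57, 0.0201) and the MYC antagonist gene MXI1 (-0.57, 0.0220), the last 3 named after their values were seen. Differences were near 0 for PGK1 (0.01), ENO1 (-0.08), NDRG1 (-0.04) and ANKRD37 (0.08), common hypoxia targets that were also named after their values were seen. Among other genes not called, GPI (0.44), VEGFA (0.44), LDHA (0.37) and SLC2A1 (0.37) had higher means in MV4-11R. INSIG2 (-0.65), HILPDA (-0.44) and PDK1 (-0.40) had lower ones. These too were named after their values were seen. Of the 33 genes 14 had a higher mean in MV4-11R and 19 a lower one. With 1 array left out the number called was 4 without P1, 2 without P2, 4 without R1 and 5 without R2, with DDIT4 and PFKFB3 called each time. The ALDOC call was lost without P2 (0.0976) or R1 (0.0628). The HK2 call was lost without P1 (0.0558), P2 (0.143) or R2 (0.112), and with the neighbours' median taken off (0.0524). The KDM3A call was lost without P1 (0.0662), P2 (0.0890) or R1 (0.0715). The MXI1 call was lost without P1 (0.0758), P2 (0.0898) or R2 (0.0686).

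Genes of mitochondrial quality control and content were called about as often as all genes. Of 28 measured, 4 rose, 1 fell and 23 were not called, or 17.9% against 15.1%, and the median was 0.10 against 0.01. In limma 13 of the 28 had an unadjusted p under 0.05, against 28.6% of all genes. The arrays of the lines did not overlap for 18, against 55.6%. LONP1, a protease of the mitochondrial matrix, read 10.16 and 9.81 in MV4-11R, against 8.90 and 8.40 in MV4-11, and rose by 1.33 (SE 0.20, limma adjusted p = 0.0116), or 2.52-fold. The matrix chaperone gene HSPD1 rose by 0.67 (adjusted p = 0.0165). YME1L1, a protease of the inner membrane, fell by 0.64 (adjusted p = 0.0248), but its neighbours on chromosome 10 had a median of -0.72, and with that taken off the difference was 0.082 (0.707). The other rises were of the inner membrane protease gene OMA1 (0.65) and the biogenesis coactivator gene PPRC1 (0.54), named after their values were seen. With 1 array left out, 1 was called without P1 and 3 without each of the others, and LONP1 was called each time. The HSPD1 call was lost without P1 (0.0756) or R1 (0.0593), and with the neighbours' median taken off (0.40, adjusted p = 0.0698). The YME1L1 call was lost without P1 (0.102), P2 (0.0548) or R2 (0.0720). The OMA1 call was lost without P1 (0.112), R1 (0.0716) or R2 (0.0710), and the PPRC1 call without any 1 array (0.0503 to 0.170).

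Anti-apoptotic proteins such as BCL2 and BCL-xL, the product of BCL2L1, bind BNIP3 and Beclin 1. Of 4 measured genes, BCL2, BCL2L1, MCL1 and BCL2A1, 0 were called by limma, 2 had an unadjusted p under 0.05, and all 4 had higher means in MV4-11R. Over all 18417 genes 15.1% were called, 28.6% had an unadjusted p under 0.05, and 9481 had a higher mean in MV4-11R. BCL2L1 differed by 0.31 (SE 0.12, adjusted p = 0.139) and BCL2A1 by 0.65 (SE 0.22, adjusted p = 0.115). BCL2A1 read 6.18 and 6.197 in MV4-11R, against 5.20 and 5.89 in MV4-11, all under the background guide, so its difference is not exact. That difference was 0.99 without P2 (adjusted p = 0.0149) and 0.30 without P1 (0.343). BCL2L1 lies on chromosome 20, where its neighbours had a median of 0.28, and with that taken off it differed by 0.04.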

How the data were processed

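RNA of 2 MV4-11R and 2 MV4-11 samples was measured on Affymetrix Human Gene 1.0 ST arrays. Values are the deposited log2 signals, 1 per probe set. According to the submitters' processing notes the authors used RMA, which corrects background, equalises distributions and summarises probes, and Affymetrix Expression Console. Versions and annotation are not given in the sources used here. Scanner files were not used here, and the 4 arrays limit the precision. Nothing says that arrays of a line came from separate cultures, so p-values measure only how these arrays vary, possibly for technical reasons.

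Of 33297 probe sets, GEO's platform annotation gives 19460 a single gene, 1754 several and 12083 none. The brightest single-gene probe set stood for each of 18417 genes, updated to RefSeq symbols. Each of the 9 genes had 1 such probe set. Differences, MV4-11R minus MV4-11, were fitted over all genes with limma 3.58.1 (R 4.3.3, lmFit and eBayes) and Benjamini-Hochberg adjustment, with 2 residual degrees of freedom per gene and 6.06 after pooling. The script was tested on simulated data with 200 genes changed. It called 0.597% of changes of 0.5 log2 units, 60.3% of changes of 1 and 96.7% of changes of 2. Of its calls 6.14% were false. In the real data 2772 genes were called, so these rates need not hold there, but a gene not called may still differ. Levels are not compared between probe sets. The neighbours' median is that of up to 20 genes on the same chromosome whose level is above the median.

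The 9 genes, the 7 pathway lists and the marker lists were chosen with earlier results of these data known. Named from each list were up to 2 called rises and 2 called falls of largest size, beside HIF1A, FOXO3, ULK1, TFEB, BCL2L1, EZH2 and the 5 profiles nearest to BNIP3. The markers named are all those that were called, with SPI1 and MPO beside them. For any other name outside a list given in full, the text says that it was picked with its value in view. Of 203 listed pathway genes 190 were measured. Promoter windows came from a RefSeq table (GRCh38.p14). With windows on chromosome 8, where BNIP3L lies, left out, 7 of the 9 genes had one. Alternatives, whose effect is given at the end, were every probe set tested, the mean of a gene's probe sets, a level filter, median centring, repeated quantile normalization, neighbours' median taken off, the replicate number as a block, eBayes with trend, each array left out and the shared MAP1LC3B probe set.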

Additional observations from a re-analysis of the deposited data

Results flagged for a closer look

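A probe set that the platform annotation gives to both MAP1LC3B2 and MAP1LC3B, and that the gene-level comparison leaves out for this reason, differed between the lines. It read 11.47 and 11.37 in MV4-11R, against 10.68 and 10.68 in MV4-11, a log2 difference of 0.74 (SE 0.11). It was called when every probe set was tested on its own, and which of the 2 genes it reads was not tested.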

How the results depend on the processing

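BNIP3 was called under all 12 alternatives, with a difference of 3.15 to 3.98 when 1 array was left out. With every probe set tested the number called was 1505 of all 33297 probe sets, with and without a single gene. Of the lists, 1 of the 9 genes, 1 other mitophagy gene, 2 of the autophagy machinery and 6 lysosomal genes were called. The counts were 0 for HIF and FOXO factors, 2 for HIF targets and 1 for mitochondrial dynamics. With the mean of a gene's probe sets 1 HIF and FOXO factor was called. Same-numbered arrays of the 2 lines deviated together at r = 0.26, and 2 pairs cannot establish a pairing. With the replicate number as a block 3642 genes were called, 6 of the 9 genes, 10 HIF targets and 8 genes of mitochondrial dynamics. Leaving out 1 array gave 1588 to 2479 calls over all genes, 1 to 4 of the 9 genes, 1 to 2 other mitophagy genes, 3 to 7 of the autophagy machinery, 7 to 10 lysosomal genes, 0 to 3 HIF and FOXO factors, 2 to 5 HIF targets, 1 to 3 genes of mitochondrial dynamics and 0 to 1 BCL2 partners. With the neighbours' median taken off, 2 genes reversed, PIK3C3 (-0.084) and YME1L1 (0.082), and SQSTM1 was at 0.08. The causes of lost calls were not tested, except that leaving out an array leaves fewer arrays. The number of arrays and the low signal of BNIP3 in MV4-11 limit the precision of its fold.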
